A study of Mus musculus with 6 samples.

Results

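The mouse genome carries 39 Hox genes in 4 clusters, and all 39 were found among the 54532 genes of the deposited table by taking the protein-coding rows named Hox followed by a cluster letter and a paralog number. One of them, Hoxd4, was listed in 2 rows, so 40 rows were used. Tumors of the colon of C57BL/6N mice were profiled by RNA-seq, 3 from Tmem173fl/fl mice (WT in the labels) and 3 from Tmem173iΔmye mice (CRE in the labels). All mice carried floxed alleles of Tmem173, the gene for the innate immune adaptor STING, and received the carcinogen AOM, 3 cycles of DSS in the drinking water, and tamoxifen (TAM) after the third cycle, when tumors were present. The Tmem173iΔmye mice also carried Lyz2-Creert2, a Cre recombinase active after TAM in cells that express the myeloid gene Lyz2, so that deletion was aimed at myeloid cells and not at the epithelium. Each library is called a tumor here, and whether those of a group came from separate mice, the age of the mice and the place of each tumor along the colon were not given in the sources used here. Expression of Tmem173 itself ranged from 1705 to 2911 reads per tumor with overlapping groups (log2 fold change 0.00, SE 0.24), so that bulk RNA did not show the deletion. Throughout, a fold change is Tmem173iΔmye over Tmem173fl/fl, and total counts per tumor ranged from 15329810 to 16533732.

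Hox genes encode homeodomain transcription factors that give cells a position along the body axis, and they lie in each cluster in the order in which they are used from head to tail. Genes with the same number in different clusters are paralogs, and low numbers (anterior) are used toward the head while high numbers (posterior) are used toward the tail. The adult gut keeps part of this code in both epithelium and mesenchyme, with posterior genes such as Hoxb13, Hoxa13 and Hoxd13 marking the hindgut, the distal colon and the anorectal region. Members were classed here as anterior (paralog groups 1 to 4, 12 genes), central (groups 5 to 8, 11 genes) and posterior (groups 9 to 13, 16 genes).

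The DNA-binding part of these proteins is encoded by the homeobox. That of 3 group 13 genes and of Hoxd12 is shown because the balance between these close relatives differed from tumor to tumor. Each run below is 180 bases of the GENCODE transcript on GRCm38, read 5′ to 3′, and capitals mark bases that differ from Hoxd13.
Hoxd13: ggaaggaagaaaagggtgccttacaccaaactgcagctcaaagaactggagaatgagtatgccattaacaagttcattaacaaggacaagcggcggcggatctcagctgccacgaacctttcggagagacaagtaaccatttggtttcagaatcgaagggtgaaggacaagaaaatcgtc
Hoxa13: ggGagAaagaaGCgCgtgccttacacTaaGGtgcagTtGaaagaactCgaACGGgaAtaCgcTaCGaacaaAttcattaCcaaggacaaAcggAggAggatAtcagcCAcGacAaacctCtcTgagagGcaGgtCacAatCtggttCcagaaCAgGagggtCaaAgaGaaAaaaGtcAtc
Hoxb13: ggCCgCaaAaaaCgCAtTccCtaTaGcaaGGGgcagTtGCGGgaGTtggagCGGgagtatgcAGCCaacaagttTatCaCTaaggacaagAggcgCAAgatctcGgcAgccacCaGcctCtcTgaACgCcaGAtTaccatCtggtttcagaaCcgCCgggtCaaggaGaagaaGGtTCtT
Hoxd12: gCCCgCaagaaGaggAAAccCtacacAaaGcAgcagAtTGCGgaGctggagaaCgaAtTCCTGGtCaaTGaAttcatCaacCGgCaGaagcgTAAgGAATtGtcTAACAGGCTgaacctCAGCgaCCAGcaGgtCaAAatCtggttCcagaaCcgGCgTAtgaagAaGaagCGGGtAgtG
Hoxa13 differed from Hoxd13 at 47 of the 180 bases, Hoxb13 at 59 and the neighbour Hoxd12 at 79. Identity to Hoxd13 was thus 73.9%, 67.2% and 56.1%. Across the whole transcripts of Hoxa13, Hoxb13 and Hoxd9 to Hoxd13, no pair shared an exact stretch longer than 28 bases, and between Hoxd13 and the other group 13 genes the longest was 14 bases.

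Use of the 4 clusters was very unequal. The HoxA cluster, on chromosome 6 (GRCm38 chr6:52155590-52260880), had reads on all 11 genes, and 10 of them passed a mean of 0.5 fragments per kilobase of gene and 1000000 reads (FPKM). In the HoxB cluster (chr11:96194316-96368256), 5 of 10 genes passed. In the HoxD cluster (chr2:74668310-74765142), 5 of 9 genes passed, and these were the 5 posterior ones. The HoxC cluster (chr15:102921103-103036852) was nearly silent, with 12 reads in all 6 tumors together and 6 of its 9 genes without a read. Of all 39 genes, 20 passed and 19 did not, and 11 had no more than 3 reads in any tumor. A count of 0 leaves room for up to 3 reads, which is 0.181 to 0.196 CPM (reads per 1000000 counts) here and covers counting error only.

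**Figure D1:**
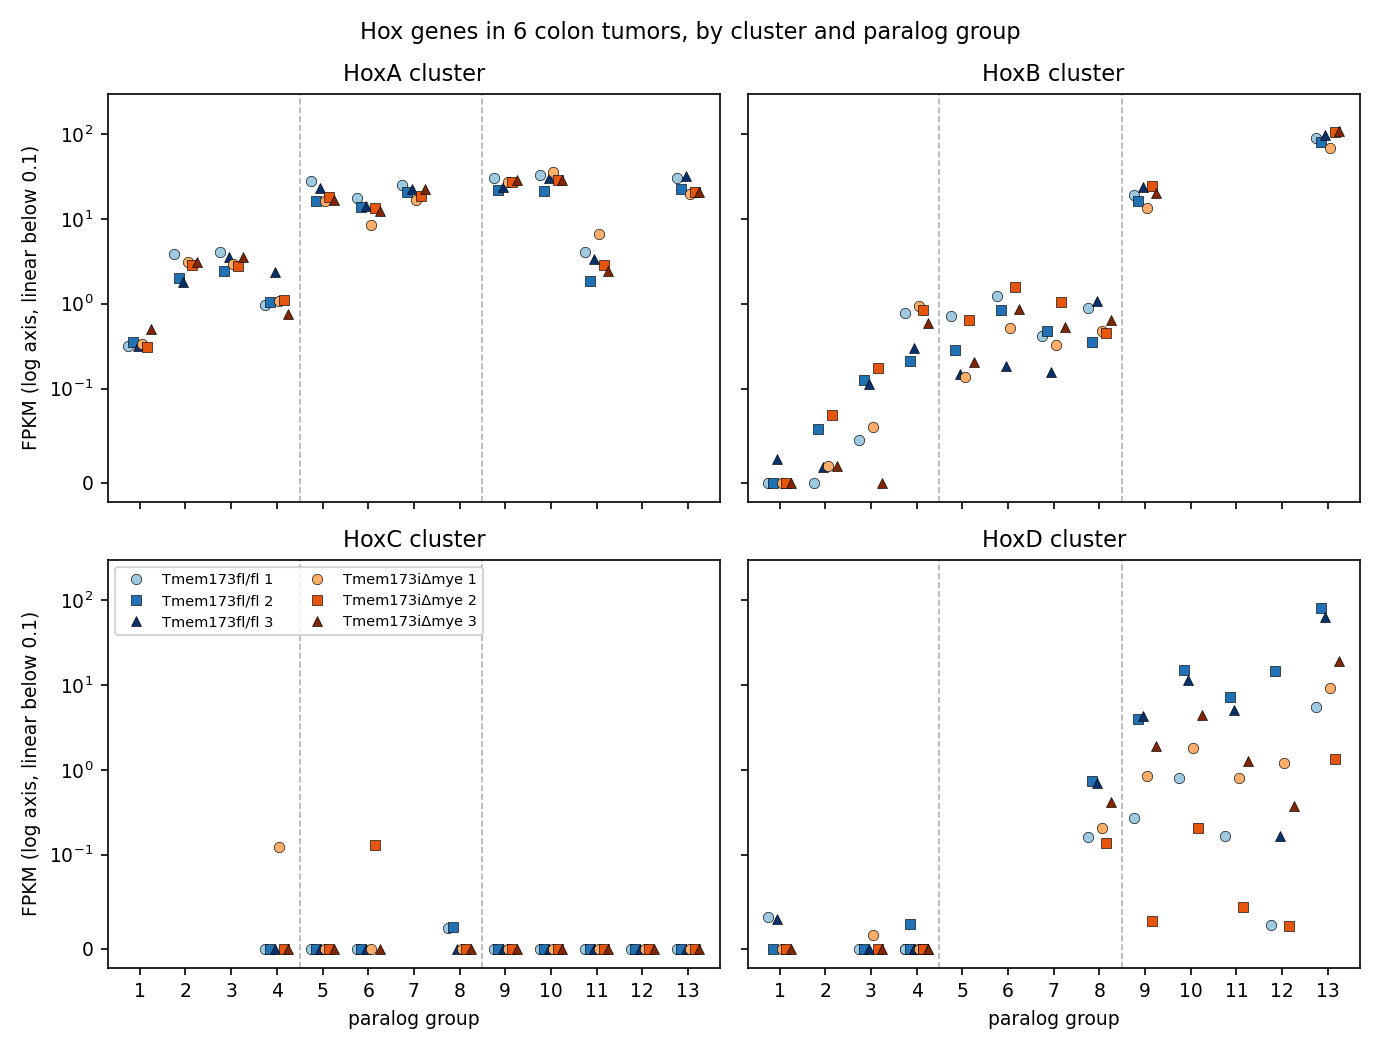
FPKM of every Hox gene (vertical axis, logarithmic above 0.1 FPKM) against its paralog group (horizontal axis) in the 4 clusters, with 1 point per tumor and dashed lines between anterior, central and posterior groups. The 6 tumors lie close together for the expressed HoxA genes and for Hoxb9 and Hoxb13, are spread over 60.0 to 586-fold for Hoxd9 to Hoxd13, and sit at or near 0 for HoxC.

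Posterior genes took most of the Hox reads in every tumor. Their share was 77.2%, 85.7% and 83.7% in Tmem173fl/fl tumors 1, 2 and 3, and 82.3%, 81.7% and 82.2% in Tmem173iΔmye tumors 1, 2 and 3. The 95% Wilson interval of the lowest share was 76.5% to 77.9% and that of the highest 85.1% to 86.3%, which cover counting error only. Anterior genes took 2.43% to 4.39% and central genes 11.9% to 18.4%. Between genotypes the posterior share was 82.2% ± 4.43 (SD, n = 3) in Tmem173fl/fl and 82.1% ± 0.31 (SD, n = 3) in Tmem173iΔmye tumors. That difference was far smaller than the spread between tumors. Within HoxA and HoxB alone, the share was 78.3% ± 1.35 in Tmem173fl/fl and 81.3% ± 0.53 in Tmem173iΔmye tumors (SD, n = 3 each). The groups did not overlap there, with 76.8%, 78.7% and 79.4% against 81.5%, 81.7% and 80.7%. Of single genes with a mean of at least 0.5 FPKM, 12.4% had groups that did not overlap. Neither share was given a test. Per length the order of the classes was the same, with 78.2% of summed Hox FPKM on posterior genes.

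Among anterior genes, those with an FPKM mean over 0.5 were Hoxa2, Hoxa3, Hoxa4 and Hoxb4. Hoxa3, which patterns the pharyngeal arches, had an FPKM of 4.01, 2.43 and 3.55 in the Tmem173fl/fl tumors and 2.92, 2.81 and 3.59 in the Tmem173iΔmye tumors. Hoxa2, known for its role in the hindbrain and the second pharyngeal arch, had 3.82, 1.996 and 1.81 against 3.12, 2.89 and 3.07. Hoxa4 had 0.96, 1.05 and 2.36 against 1.07, 1.098 and 0.75 FPKM. The groups overlapped for all of these genes. The remaining anterior genes were lower, and Hoxb1, Hoxb2, Hoxd1, Hoxd3 and Hoxd4 never exceeded 4 reads.

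Central genes came almost wholly from the HoxA cluster. Hoxa7, a trunk gene, had an FPKM of 25.1, 20.6 and 22.5 in Tmem173fl/fl and 16.8, 18.4 and 22.5 in Tmem173iΔmye tumors. Hoxa5, which acts in the mesenchyme of the gut and lung, had 28.2, 16.1 and 23.1 against 16.3, 18.2 and 16.8. Hoxa6, between them, had 17.5, 13.8 and 14.2 against 8.36, 13.4 and 12.5 FPKM. Hoxa6 was thus lower in all Tmem173iΔmye tumors than in any Tmem173fl/fl tumor, while Hoxa5 and Hoxa7 overlapped. In the HoxB cluster the paralogs Hoxb5 to Hoxb8 stayed at a mean of at most 0.87 FPKM and at no more than 50 reads in any tumor. The step from there to the next gene of the cluster, Hoxb9, was abrupt, since Hoxb9 had 555 to 1026 reads and an FPKM of 13.6 to 24.5.

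Of the posterior genes, Hoxb13 had the highest mean FPKM of all Hox genes, although Hoxd13 was slightly above it in Tmem173fl/fl tumor 2. Its FPKM was 89.5, 81.1 and 97.8 in the Tmem173fl/fl tumors and 68.7, 104.8 and 107.6 in the Tmem173iΔmye tumors, and the groups overlapped (89.5 ± 8.34 against 93.7 ± 21.7, SD, n = 3 each). Hoxa10, a gene of the lumbar region and the uterus, was the highest HoxA gene by mean FPKM over the tumors, with 32.9, 21.4 and 30.7 against 35.6, 28.4 and 28.6 FPKM. Hoxa13, needed for the hindgut and its outlet, had 29.99, 22.2 and 31.8 against 19.5, 20.8 and 20.5 FPKM. Hoxa13 was the other gene, with Hoxa6, whose groups did not overlap, and it was lower in Tmem173iΔmye tumors. These 2 of 20 tested Hox genes compare with 12.4% of all 16426 tested genes whose groups did not overlap, and 6.31% that did so with Tmem173iΔmye tumors lower. Hoxa9, Hoxa10, Hoxa13, Hoxb9 and Hoxb13 each varied by no more than 1.80-fold between the lowest and the highest tumor.

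The HoxD cluster behaved differently. Hoxd13, which patterns the digits, the genital tubercle and the anorectal region, had 212, 3029 and 2646 reads in Tmem173fl/fl tumors 1, 2 and 3 and 362, 54 and 761 reads in Tmem173iΔmye tumors 1, 2 and 3. This corresponds to an FPKM of 5.47, 81.5 and 63.6 against 9.18, 1.36 and 19.4. Tmem173fl/fl tumors 2 and 3 were thus high, Tmem173iΔmye tumor 3 was intermediate, the other 3 tumors were low, and the groups overlapped. Hoxd10 followed the same order with 23, 408 and 353 reads against 52, 6 and 128. Hoxd11 had 11, 453 and 355 reads against 53, 3 and 85. Hoxd9 had 9, 128 and 156 reads against 29, 1 and 65. All 3 of these genes were highest in Tmem173fl/fl tumors 2 and 3, then in Tmem173iΔmye tumor 3, and lowest in Tmem173iΔmye tumor 2. Hoxd8, the only central gene of this cluster and below the filter, had 7, 30 and 32 reads against 9, 6 and 18, again with the same 3 tumors on top.

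In proportion to Hoxd13, Hoxd10 varied least among the posterior HoxD genes, then Hoxd11 and Hoxd9, while Hoxd12 is described separately. For every 100 reads on Hoxd13 there were 10.8 to 16.8 reads on Hoxd10 across the 6 tumors, although Hoxd13 itself ranged from 54 to 3029 reads. The corresponding numbers were 5.19 to 14.96 for Hoxd11 and 1.85 to 8.54 for Hoxd9, where the lowest values rest on 1 to 11 reads. As a share of all Hox reads, HoxD ranged from 0.60% (Wilson interval 0.48% to 0.76%) in Tmem173iΔmye tumor 2 to 33.9% (33.1% to 34.7%) in Tmem173fl/fl tumor 2. Ranked by the standard deviation of log2(CPM + 1) over the 6 tumors, Hoxd13 stood at place 11 of the 16426 tested genes, Hoxd12 at 13, Hoxd11 at 17, Hoxd10 at 25 and Hoxd9 at 92. From the lowest to the highest tumor the FPKM of these 5 genes differed by 60.0 to 586-fold, against 1.40 to 8.73-fold (median 1.80) for the 15 tested genes of HoxA and HoxB and a median of 1.71-fold for all tested genes. A range of at least 10-fold was seen for these 5 of 20 tested Hox genes. For all tested genes the share was 6.68%, which also counts genes at 0 in the lowest tumor and at least 0.5 FPKM in the highest.

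The pattern ended close to the cluster. Evx2, a homeobox gene 8.75 kb beyond Hoxd13, shared the pattern with 13, 199 and 243 reads against 17, 1 and 33. The next gene on that side, Lnpk, 88.9 kb from Hoxd13, had 356, 431 and 369 reads against 294, 286 and 352. On the other side, Hoxd4, Hoxd3 and Hoxd1 had at most 1 read in any tumor. Mtx2, 60.7 kb beyond Hoxd1, had 768, 578 and 780 reads against 949, 762 and 727. Lnpk and Mtx2 thus differed little between the tumors, whereas Evx2 and all genes from Hoxd13 to Hoxd9 other than Hoxd12 had the same 3 tumors on top. Evx2, Lnpk and Mtx2 were chosen for their position after the values were seen. Between genotypes Evx2 had a log2 fold change of -3.14 (SE 1.13, edgeR unadjusted p = 0.025, adjusted p = 0.742), with overlapping groups. That is past an absolute log2 fold change of 1 and an unadjusted p of 0.05, as were 2.12% of all tested genes. Lnpk had -0.33 (SE 0.18) and Mtx2 0.19 (SE 0.16).

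**Figure D2:**
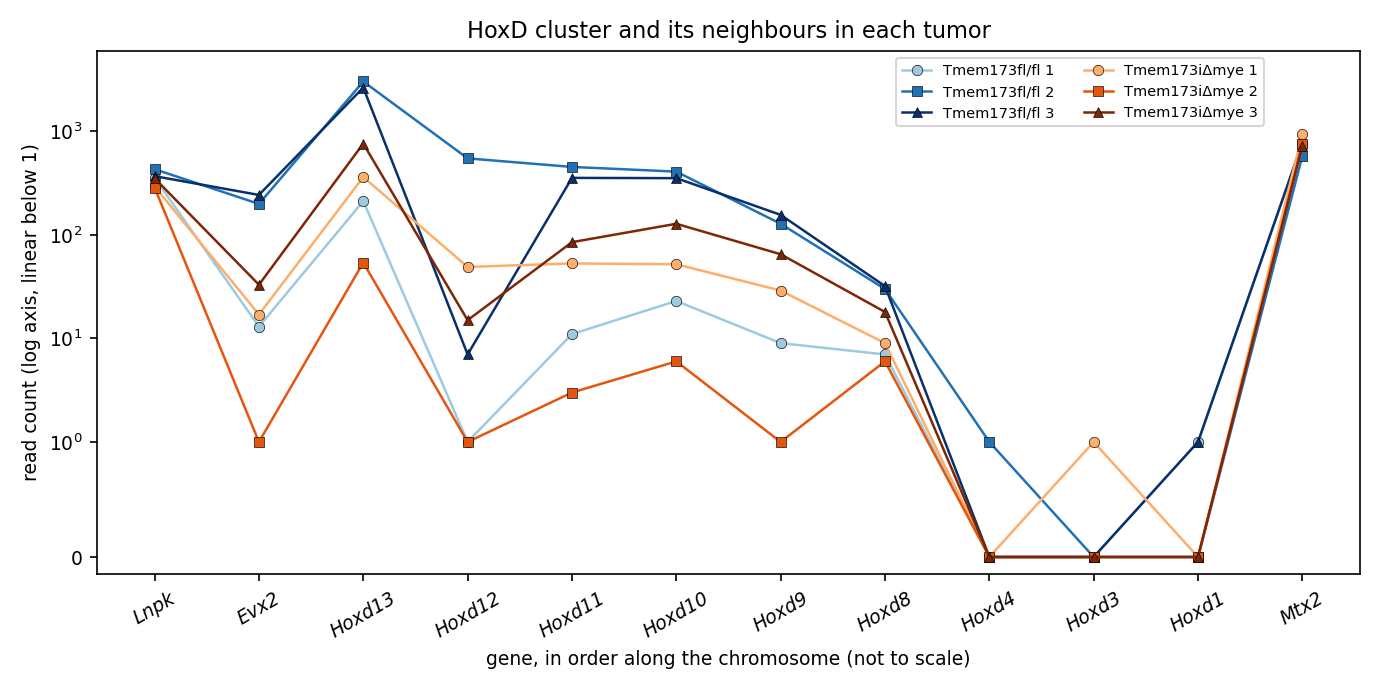
Read counts (vertical axis, logarithmic above 1 read) of the HoxD genes and the nearest genes on either side, in chromosomal order and with 1 line per tumor. Lnpk and Mtx2 lie within 286 to 431 and 578 to 949 reads, Hoxd13 ranges from 54 to 3029 reads, and Hoxd4, Hoxd3 and Hoxd1 stay at 0 or 1 read.

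The balance of the group 13 paralogs followed from this. Hoxd13 made up 4.37%, 44.1% and 32.9% of the summed group 13 FPKM in Tmem173fl/fl tumors and 9.42%, 1.07% and 13.2% in Tmem173iΔmye tumors. Hoxb13 made up 43.9% to 82.5% and Hoxa13 12.02% to 24.0%. In Tmem173fl/fl tumor 2, Hoxd13 and Hoxb13 stood at nearly the same FPKM, and in Tmem173iΔmye tumor 2 there were 1.46 reads on Hoxd13 for every 100 on Hoxb13. Hoxc13 had no read in any tumor.

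**Figure D3:**
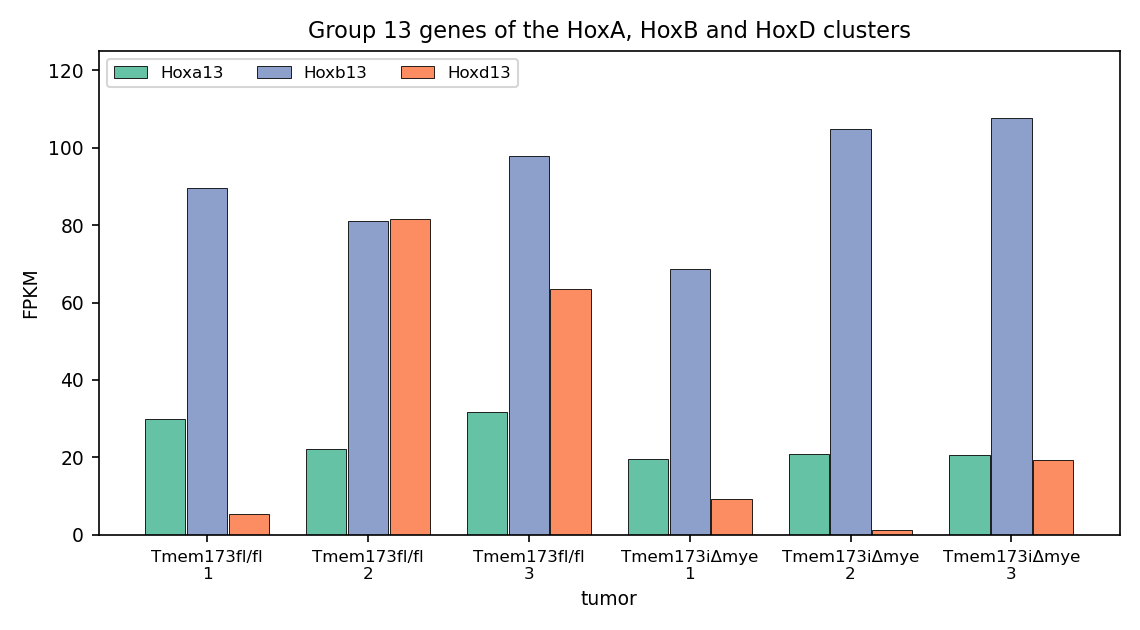
FPKM (vertical axis, from 0) of Hoxa13, Hoxb13 and Hoxd13 in each of the 6 tumors, 1 bar per gene and tumor with no averaging. Hoxb13 stays between 68.7 and 107.6 and Hoxa13 between 19.5 and 31.8, while Hoxd13 runs from 1.36 to 81.5.

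Hoxd12, which lies between Hoxd13 and Hoxd11, departed from its neighbours. It had 1, 548 and 7 reads in the Tmem173fl/fl tumors and 49, 1 and 15 in the Tmem173iΔmye tumors. Tmem173fl/fl tumor 3, with 2646 reads on Hoxd13, thus had 0.26 reads on Hoxd12 for every 100 on Hoxd13, against 18.1 in Tmem173fl/fl tumor 2 and 13.5 in Tmem173iΔmye tumor 1. The order of the tumors thus differed from that of Hoxd13. The promoters of Hoxd13 and Hoxd12, 250 bases before to 50 bases after the annotated start in RefSeq (GRCm38.p6), are shown because these adjacent genes differed most in pattern. Both are on the plus strand, Hoxd13 at chr2:74667975-74668274 and Hoxd12 at chr2:74674763-74675062, and capitals mark TTTAT on either strand, letters that homeodomains of the posterior type can bind.
Hoxd13 promoter: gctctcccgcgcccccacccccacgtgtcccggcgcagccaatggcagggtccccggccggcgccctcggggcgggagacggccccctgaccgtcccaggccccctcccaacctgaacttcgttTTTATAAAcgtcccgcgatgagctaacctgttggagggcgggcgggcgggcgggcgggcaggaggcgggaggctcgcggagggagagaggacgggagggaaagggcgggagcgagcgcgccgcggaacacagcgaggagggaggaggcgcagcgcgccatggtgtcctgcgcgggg
Hoxd12 promoter: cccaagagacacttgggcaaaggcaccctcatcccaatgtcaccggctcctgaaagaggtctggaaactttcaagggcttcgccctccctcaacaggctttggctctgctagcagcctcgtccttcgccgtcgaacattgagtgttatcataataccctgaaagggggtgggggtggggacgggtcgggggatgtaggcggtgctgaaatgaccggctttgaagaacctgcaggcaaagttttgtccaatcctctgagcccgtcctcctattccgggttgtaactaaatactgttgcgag
The Hoxd13 promoter held 2 matches that overlap each other and a TATA box sequence, and the Hoxd12 promoter held none. Of all 32851 promoters, 40% held TTTAT, as did 9 of 24 promoters of Hox genes (37.5%), which covered 22 of the genes. The Hoxd13 promoter had 37 CpG pairs and the Hoxd12 promoter 13, against a median of 7 in all promoters. These are descriptions of the sequence and were not related to the values by any test.

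Hoxd12 and the keratin gene Krt5 ranked the tumors alike. Krt5, which marks the basal layer of stratified epithelium, had 0, 1252 and 12 reads against 124, 1 and 24, the same order of tumors as Hoxd12 apart from the pair at 0 or 1 read. Trp63, the transcription factor of that layer, had 2, 38 and 2 against 8, 1 and 3 reads. Of the 5 genes of an anal squamous epithelium list, all 5 had reads and none was at 0 in every tumor, and their summed FPKM was 28.1, 173.4 and 18.1 in Tmem173fl/fl and 37.7, 59.6 and 45.2 in Tmem173iΔmye tumors. Krt14, another basal keratin, had 449, 1884 and 158 reads against 386, 1153 and 632, which peaks in the same tumor but otherwise does not follow Hoxd12. Krt13 was also highest in Tmem173fl/fl tumor 2, with 1570 reads, and Krt4 in Tmem173fl/fl tumor 3. Between genotypes 4 of these genes were tested, all 4 were below 0 (median -0.79), against 50.6% of all tested genes, and 1, Krt4, had an unadjusted p under 0.05, against 6.14%. Whether squamous tissue in the sample has a part in the Hoxd12 reads was not tested. In bulk RNA, more cells of a type and more RNA per cell cannot be told apart.

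**Figure D4:**
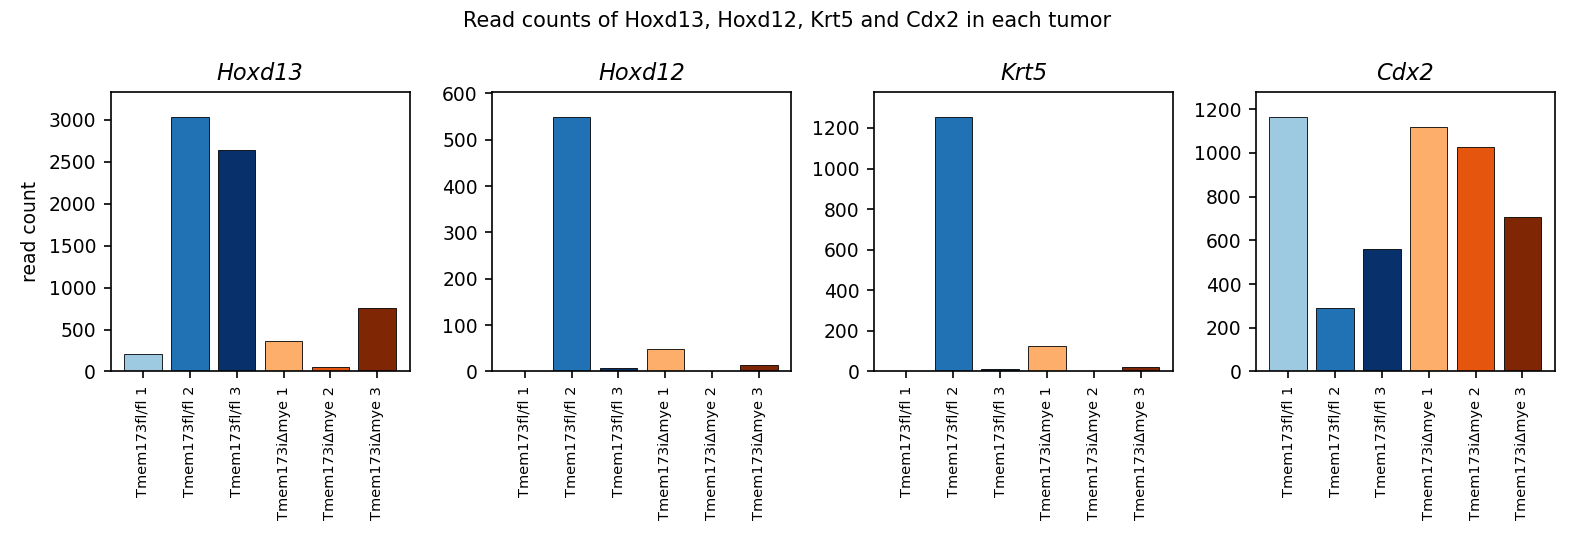
Read counts (vertical axes, each from 0 and with its own scale) of Hoxd13, Hoxd12, Krt5 and Cdx2, 1 bar per tumor. Hoxd12 and Krt5 peak in Tmem173fl/fl tumor 2 at 548 and 1252 reads, Hoxd13 is high in Tmem173fl/fl tumors 2 and 3, and Cdx2 is lowest in those tumors, at 291 and 561 reads.

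A posterior minus anterior index was formed for each tumor as the mean log2(FPKM + 0.5) of the 11 posterior genes that passed minus that of the 4 anterior genes. It was 1.34, 3.29 and 2.67 in the Tmem173fl/fl tumors and 1.81, 1.11 and 2.13 in the Tmem173iΔmye tumors. The index was higher in Tmem173fl/fl tumors 2 and 3 than in the others, and the groups overlapped (2.43 ± 0.996 against 1.68 ± 0.52, SD, n = 3 each, difference -0.75). Without the HoxD genes, an alternative added after the values were seen, the index was 3.35, 3.43 and 3.52 against 3.31, 3.38 and 3.39. Its range over the tumors was then 0.21 in place of 2.18, and the difference between genotypes -0.08. The anterior mean ranged over 0.54, the posterior HoxA mean over 0.61, the posterior HoxB mean over 0.72 and the posterior HoxD mean over 4.33 on this log2 scale. The variation in the index lay mostly in HoxD. As it is a score over chosen genes, it was given no test.

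**Figure D5:**
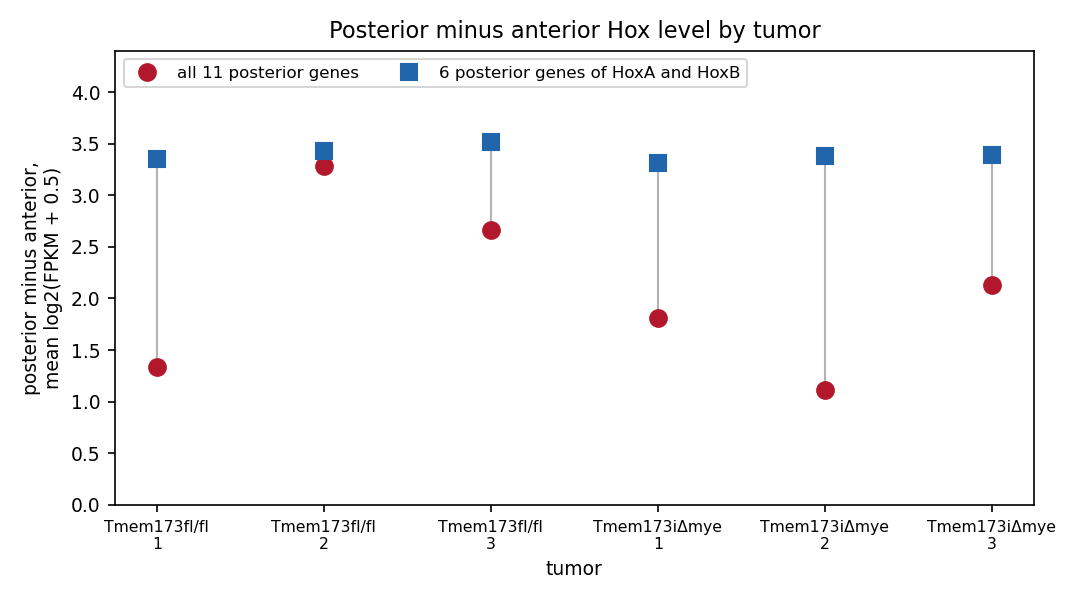
Posterior minus anterior index (vertical axis, difference of mean log2(FPKM + 0.5)) of each tumor, with all 11 posterior genes (circles) and with the 6 of HoxA and HoxB alone (squares). The squares stay between 3.31 and 3.52 and the circles run from 1.11 to 3.29.

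The design asks whether loss of myeloid STING after tumor formation alters expression, and no Hox gene passed that comparison. With p-values of the edgeR quasi-likelihood fit adjusted by Benjamini-Hochberg over all 16426 tested genes, 0 of 20 Hox genes had an adjusted p under 0.05, as did 0% of all genes. At an unadjusted p under 0.05, 1 Hox gene was found against 6.14% of all genes, and DESeq2 also found 1. That gene was Hoxa13, with a log2 fold change of -0.47 (SE 0.16, edgeR adjusted p = 0.742). Past both an absolute log2 fold change of 1 and an unadjusted p of 0.05 there were 0 Hox genes and 2.12% of all genes (DESeq2, 0 Hox genes and 2.06%). With no filter on low values, 4 of the Hox genes, Hoxd10 to Hoxd13, passed both limits, all lower, against 2.82% of all genes. Of the 20 tested Hox genes, 13 had a fold change below 0, against 50.6% of all tested genes, and their median was -0.32.

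The fold changes of the HoxD genes were large and so were their errors. For Hoxd13 the log2 fold change was -2.33 (SE 1.05), for Hoxd11 -2.54 (SE 1.23), for Hoxd10 -2.08 (SE 1.101), for Hoxd9 -1.61 (SE 1.15) and for Hoxd12 -3.16 (SE 1.84), with edgeR adjusted p from 0.742 to 0.757. The FPKM ranges of the genotypes overlapped for all 5 of these genes. The size of these values moved when single tumors were left out. That of Hoxd9 was -1.05 without Tmem173iΔmye tumor 2 and -2.69 without Tmem173iΔmye tumor 3. For Hoxd10 it was -3.18 without Tmem173iΔmye tumor 3. Hoxd9, Hoxd10, Hoxd11 and Hoxd13 stayed below 0 whichever tumor was left out, whereas Hoxd12 turned to 2.44 without Tmem173fl/fl tumor 2. The number of Hox genes past both limits depended on single tumors, being 5 without Tmem173fl/fl tumor 1 (against 3.87% of all genes in that fit), with Hoxb4 higher and Hoxd10 to Hoxd13 lower, and 2 without Tmem173iΔmye tumor 3 (against 2.6%), Hoxd10 and Hoxd13, both lower. The posterior genes of the other clusters had values nearer 0, with 0.07 (SE 0.19) for Hoxb13, 0.12 (SE 0.15) for Hoxa9 and 0.12 (SE 0.19) for Hoxa10 on the log2 scale. For Hoxb13 the direction turned when single tumors were left out.

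The HoxD order of the tumors coincided with the presence of Y-linked reads, which gives the sex of the mouse. Reads from 4 Y-linked genes numbered 3547, 2 and 0 in the Tmem173fl/fl tumors and 2875, 2655 and 2 in the Tmem173iΔmye tumors, and Xist had 6, 20088 and 26549 against 2, 11 and 19712. Hoxd9, Hoxd10, Hoxd11 and Hoxd13 were higher in each of the 3 tumors without Y-linked reads than in each of the 3 with them, as were 8.22% of all tested genes. The opposite order was seen for 1 Hox gene, Hoxb4, and for 9.3% of all tested genes. For Hoxd13 the lowest of the former was 2.11 times the highest of the latter. With Y-linked reads as a covariate the log2 fold change of Hoxd13 between genotypes was -1.02 (SE 0.76, edgeR adjusted p = 1), smaller in size than the value without it. In that fit Hoxd9 had -0.39, Hoxd10 -0.77, Hoxd11 -0.81 and Hoxd12 -1.16. Sex was unevenly divided between the genotypes, the place of each tumor was not given, and with 6 tumors sex and position cannot be told apart here.

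Levels of some other tissue markers differed in the same split, as did FPKM summed over all genes. The summed FPKM of 8 epithelium markers was 4981 to 5471 in the 3 tumors without Y-linked reads and 5531 to 6628 in the others. For 6 leukocyte markers the sum was 15.1 to 19.7 against 20.03 to 47.5. Smooth muscle markers, 8 genes that include Des and Myh11, ranged from 139.7 to 200.4 against 128.7 to 215.6 and fibroblast markers, 7 genes, from 221.0 to 271.0 against 213.8 to 330.1. The muscle and fibroblast sums thus overlapped between the split tumors, and their part in the HoxD values was not tested. Of the defining markers in these 4 lists none was at 0 in every tumor.

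Several Hox genes share their place with another transcript, and the counting was not stated to use strand. Of the 20 tested genes, 11 overlapped another gene model and 7 one on the opposite strand. Hoxa11 had 64 to 243 reads, and Hoxa11os, an antisense RNA that overlaps it by 1418 bases, had 437 to 1383, so that reads of this pair may be divided wrongly. The 5 tested HoxD genes had no opposite-strand model over them, although Hoxd10 and Hoxd11 share bases with Gm28309, which had 12 reads in all. Of 17 noncoding RNAs of the Hox clusters, 16 were in the table, 6 were without a read in every tumor and 6 were tested, and none of the tested ones had an unadjusted p under 0.05. Hottip, beyond Hoxa13, had 217, 106 and 236 reads against 174, 133 and 111, Hotairm1 39, 10 and 66 against 32, 21 and 28, and Hoxaas3 68 to 100. Hotair, of the HoxC cluster, had none.

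Mir196a-1 lies between Hoxb9 and Hoxb13, and 88 to 152 reads per tumor fell on its hairpin. These polyA libraries do not measure mature miRNAs. The mature miRNA is shown, with its seed (bases 2 to 8) in capitals, beside its near-complete match in Hoxb8, a gene it is known to cleave.
mmu-miR-196a-5p: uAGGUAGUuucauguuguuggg
Hoxb8 site: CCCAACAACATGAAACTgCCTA
The miRNA lies at chr11:96265187-96265208 (GRCm38.p6, plus strand, RefSeq), and the site starts at base 2208 of transcript Hoxb8-201. In the site, capitals mark the 21 of 22 bases that form Watson-Crick pairs with the miRNA, and the lower-case base lies within the seed match. Hoxb8 had 37, 14 and 47 reads against 20, 19 and 27, and Mir196a-1 126, 88 and 152 against 103, 147 and 148. The Hoxb8 groups overlapped (log2 fold change -0.56, SE 0.47, edgeR adjusted p = 0.779).

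Genes that act with or upstream of the Hox genes were compared between genotypes from lists, and in none of them did a gene have an adjusted p under 0.05 by edgeR or DESeq2. Of 9 TALE homeobox cofactors, which bind DNA together with Hox proteins, 7 were tested and 0 had an unadjusted p under 0.05 (median log2 fold change 0.12, against -0.0042 for all tested genes). Among those with low p values were Pknox1 (log2 fold change -0.17, SE 0.17) and Pbx2 (0.12, SE 0.14). Of 18 retinoic acid genes, which include the enzymes and receptors of the signal that switches on anterior Hox genes, 13 were tested, 0 had an unadjusted p under 0.05 and 11 were below 0 (median -0.24). Aldh1a2, which makes retinoic acid, had 40, 22 and 25 reads against 10, 24 and 9 (-1.03, SE 0.51). For Rarb the value was -0.64 (SE 0.34) and for Cyp26b1 -0.79 (SE 0.45). Of 30 Polycomb and Trithorax genes, which keep Hox genes off or on, all were tested and 1 had an unadjusted p under 0.05, against 6.14% of all tested genes. The lowest p was that of Ring1 (0.38, SE 0.16), with Pcgf1 (0.92, SE 0.42) and Phc1 (-0.41, SE 0.20) next. The summed FPKM of these 30 genes was 386.4 to 410.7 in the tumors without Y-linked reads and 363.4 to 381.9 in the others. The sums of the TALE cofactors and of the retinoic acid genes overlapped in that split. Whether these genes have a part in the HoxD values was not tested.

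Of 18 transcription factors of intestinal identity, 16 were tested and 0 had an unadjusted p under 0.05, with log2 fold changes from -0.33 to 1.07 (median -0.07). Gata6 (-0.33, SE 0.15), Foxa1 (-0.24, SE 0.15) and Pdx1 (1.07, SE 0.67) had the lowest p values. Cdx2, a caudal-type factor that activates posterior Hox genes in the embryo, had 1162, 291 and 561 reads in Tmem173fl/fl and 1116, 1027 and 708 in Tmem173iΔmye tumors (log2 fold change 0.49, SE 0.45, edgeR adjusted p = 0.79). Its 3 lowest tumors were the 3 with the most Hoxd13 reads. They were also the 3 without Y-linked reads, an order seen for 9.3% of all tested genes. A link between Cdx2 and Hoxd13 was not tested. Cdx1 had 1861, 1716 and 1958 reads against 2115, 1378 and 2478 and did not follow Hoxd13. Prac1 was not analysed here.

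Neither set of colon position markers ranked the tumors as HoxD did. Of the distal markers, 5 of 6 were in the table, and their summed FPKM was 58.5, 50.4 and 50.8 in Tmem173fl/fl and 39.3, 44.4 and 50.7 in Tmem173iΔmye tumors. Scnn1g, a subunit of the sodium channel of the distal colon, had 89, 63 and 127 reads against 53, 32 and 57 (log2 fold change -0.97, SE 0.35, edgeR adjusted p = 0.742). Scnn1b, another subunit, had 276, 226 and 490 against 198, 162 and 239 (-0.72, SE 0.29), and Atp12a 988 to 1667 reads. Scnn1g and Scnn1b were the 2 of 5 tested distal genes with an unadjusted p under 0.05, against 6.14% of all tested genes. Of 5 proximal markers, 4 were tested and all 4 were below 0 with none at an unadjusted p under 0.05 (median -1.10). Their summed FPKM was 93.9, 7.01 and 92.6 against 29.9, 29.3 and 27.4, so that Tmem173fl/fl tumor 2 was the lowest and Tmem173fl/fl tumors 1 and 3 the highest. Cyp2c55 had 1008, 74 and 1527 reads against 319, 190 and 227, Slc26a3, a chloride exchanger, 993, 40 and 1999 against 334, 354 and 433, and Car4 1235, 90 and 831 against 297, 489 and 454. The tumor highest in Hoxd13 thus had the fewest reads on these 3 genes, but the next highest, Tmem173fl/fl tumor 3, had the most on Cyp2c55 and Slc26a3. Fabp2, the remaining tested proximal marker, had 168, 12 and 45 reads against 105, 60 and 16. Unlike the sums, its 3 lowest tumors were the 3 with the most Hoxd13 reads. They were again the 3 without Y-linked reads, an order seen for 9.3% of all tested genes.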

How the data were processed

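Poly(A) RNA from 6 colon tumors, 3 a genotype, was sequenced (NEBNext Ultra kit, TRIzol extraction). Per the labels, the submitters' processing notes name CASAVA 1.8, fastp, HISAT2 2.0.5, featureCounts 1.5.0-p3, DESeq2 1.20.0 and GRCm38. The authors deposited read counts per gene, with FPKM values in the same table that equal count over gene length scaled by a size factor per library (largest relative difference 4.88e-08). The strand setting of the counting is not given in the sources used here. The table's columns of the authors' own comparison (group means, log2 fold changes, p-values) were not used, and no other column of per-sample values was left out.

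The members and all gene lists were chosen with earlier results of these data known. The 16426 genes that reached 0.5 FPKM on average over the tumors were compared on counts with edgeR 4.0.16 in R 4.3.3 (quasi-likelihood test, TMM scaling, genotype as the only term, Benjamini-Hochberg adjustment over all of them). SE is of the log2 fold change and was derived from the edgeR test, as the absolute log2 fold change over the square root of the F statistic. It is thus not an error estimated apart from that test. Values per tumor are given for the 3 highest genes of each class by mean FPKM, group 13 genes with any read, genes with an unadjusted p under 0.05 and the highest gene of each cluster, and for up to 3 genes a list with the lowest p, of which some are not reported here. Of the HoxC cluster that gene was Hoxc6, with 5 reads in Tmem173iΔmye tumor 2 and 0 elsewhere. No 2 libraries agreed within sampling noise. The sources do not state that the tumors of a group came from separate mice. Each group held tumors with and without Y-linked reads, so not all tumors of a group came from the same mouse. The p-values measure the spread between these samples, part of which may be technical. DESeq2 1.42.0, limma 3.58.1, other filters and scalings, a replicate block, Y-linked reads as a covariate and leaving out each tumor were alternatives. Homeoboxes come from GENCODE transcripts and promoters and the miRNA from RefSeq. Python 3.11.15 was used for the summaries.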

Additional observations from a re-analysis of the deposited data

How the results depend on the processing

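No Hox gene had an adjusted p under 0.05 under any of 14 alternatives of the test, scaling, filter, unit, covariate, block or tumors used. Over all genes 0 were called by edgeR, 28 by DESeq2 and 6 with no filter, and 0 to 1 when each tumor was left out. Past both limits (a log2 fold change of 1 and an unadjusted p of 0.05) there were 0 Hox genes, but 4 with no filter (Hoxd10, Hoxd11, Hoxd12 and Hoxd13), 5 without Tmem173fl/fl tumor 1 and 2 without Tmem173iΔmye tumor 3, a range of 0 to 5 when each tumor was left out. The cause of these changes was not tested. For all genes that count was 349, against 872 with no filter, 211 with Y-linked reads as a covariate, 131 by limma on log2(FPKM + 1), and 636 and 218 without Tmem173fl/fl tumors 1 and 3.

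The fold change of Hoxb13 turned from 0.07 to -0.0063 without Tmem173fl/fl tumor 2, -0.025 without Tmem173iΔmye tumor 2 and -0.046 without Tmem173iΔmye tumor 3, and reached 0.24 at most when each tumor was left out. That of Hoxd12 was -3.16 but turned to 2.44 without Tmem173fl/fl tumor 2, which held 548 of its reads, and was -4.57 without Tmem173iΔmye tumor 1, and DESeq2 gave it no adjusted p. When each tumor was left out, the log2 fold change of Hoxd13 stayed between -3.25 and -1.79 and that of Hoxa13 between -0.61 and -0.36. The index difference ranged from -1.29 to -0.32 when each tumor was left out. Posterior genes held 78.2% of Hox FPKM in place of 82.1% of reads.

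Same-numbered tumors of the 2 genotypes share only a number. The correlation of their deviations was 0.31, 0.01 and 0.15 for numbers 1, 2 and 3, and Tmem173fl/fl tumor 2 correlated best with Tmem173iΔmye tumor 3 (0.22). With the replicate block 0 Hox genes and 0 of all genes had an adjusted p under 0.05, 377 genes were past both limits, and Hoxd12 had a log2 fold change of -0.23. Genes with 3 reads or fewer in every tumor have no usable fold change.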

Other observations

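Among genes with a standard deviation of log2(CPM + 1) above 1 over the tumors, 271 in all, the genes whose values were most like those of Hoxd13 were, in order, Hoxd10, Hoxd9, Hoxd11, Evx2, Gm5805, Isl1, Hba-a1, Hbb-bs and Shh. Xist, high in the tumors without Y-linked reads, came next at place 10, and the part of sex in this order was not tested. Likeness was the correlation of log2(CPM + 1) over 6 tumors that share libraries and depth, and the list was made after the values were seen. Isl1, a homeobox gene of motor neurons, endocrine cells and urogenital mesenchyme, had 223, 569 and 1388 reads in the Tmem173fl/fl tumors and 132, 67 and 216 in the Tmem173iΔmye tumors. Shh, the hedgehog signal of the gut epithelium and cloaca, had 118, 293 and 466 reads against 24, 17 and 118. Both were highest in Tmem173fl/fl tumor 3 and lowest in Tmem173iΔmye tumor 2.

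Evx1, beside Hoxa13 on chromosome 6, had 922 to 1390 reads, in contrast to Evx2 beside Hoxd13 with 1 to 243. On the HoxD side, the unnamed transcripts Gm14396 and Gm28793, next to Hoxd9, had 3, 26 and 18 reads against 0, 0 and 1, and 1, 12 and 18 reads against 0, 1 and 4. Their log2 fold changes were -5.12 (SE 1.21, edgeR unadjusted p = 0.003, adjusted p = 0.742) and -2.54 (SE 1.15, edgeR unadjusted p = 0.059, adjusted p = 0.742). Both rest on few reads, and both genes were chosen after the values were seen.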
